A study of Mus musculus with 4 samples.

Results

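The forkhead genes encode a family of transcription factors with a shared winged-helix DNA-binding domain. They were taken as the RefSeq protein-coding genes of mouse assembly GRCm38.p6, which has the coordinates of mm10, with a symbol made of Fox, a letter from a to s and a number. This gave 44 of 21883 protein-coding genes. Binding peaks of Slug and Snail, the products of Snai2 and Snai1, were counted in the gene or within 10 kb of either of its ends, by the peak's midpoint. The choice used symbols only, and no measured value.

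Slug was mapped by chromatin immunoprecipitation and sequencing (ChIP-seq) in pBl.1G cells, which are epithelial with high Slug expression, and Snail in pBl.3G cells, which are mesenchymal with high Snail expression. Both are mouse breast cancer lines of the MMTV-PyMT model, in which a mouse mammary tumour virus promoter drives polyoma middle T antigen, and neither received a treatment. The Slug antibody was a rabbit monoclonal, and the one used for Snail is labelled as recognising both Snail and Slug. Each factor has 1 library, so factor, antibody and cell line cannot be told apart, no spread between replicates exists, and no test was possible. The study asked how the 2 factors differ in switching on epithelial-mesenchymal transition (EMT), the change of epithelial into migratory mesenchymal cells. The Slug list held 41612 peaks with a median width of 206 bp and the Snail list 28375 peaks with a median width of 722 bp. Each peak carries a score from the authors' peak caller, at least 50 in both lists, with a median of 81.1 for Slug and 151 for Snail. The score ranks peaks within its own list and does not compare the lists. A score of at least 100 was reached by 39.7% of the Slug and 63.0% of the Snail peaks. Read depth is unknown because the files hold no counts.

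Forkhead proteins act at many steps of epithelial and mesenchymal identity. FoxA proteins open chromatin for hormone receptors in luminal mammary epithelium, FoxC2, FoxC1, FoxF2 and FoxQ1 have been linked to mesenchymal traits of carcinoma cells, and FoxO proteins are held out of the nucleus by the kinase Akt. Snail and Slug are zinc finger repressors that bind the E-box CAGGTG and drive EMT. The comparison asked which forkhead genes lay near peaks of each factor and where in the gene those peaks lay.

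Slug peaks lay near 26 of the 44 forkhead genes (59.1%), and Snail peaks near 32 (72.7%). Over all protein-coding genes the same windows gave 56.2% for Slug and 66.7% for Snail, so the forkhead shares were close to the background. Both factors had a peak near 20 members (45.5%, against 44.6% of all genes). Slug alone was found near 6 members (13.6%, against 11.6%), Snail alone near 12 (27.3%, against 22.1%) and neither near 6 (13.6%, against 21.7%). With flanks of 5 kb, 11 members had neither (25%, against 25.8%), and with scores of at least 100, 12 did (27.3%, against 30.5%), so the gap in that class was smaller there.

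Many forkhead genes are short, and a short gene offers a smaller window. The median member spanned 5.19 kb, against 17.2 kb for all protein-coding genes. Of the 26 members under 10 kb, Slug was near 12 (46.2%) and Snail near 16 (61.5%), where all genes under 10 kb gave 35.7% and 49.4%. Among these short members 6 (23.1%) had neither, against 40.3% of all short genes. Of the 18 members of 10 kb or more, Slug was near 14 (77.8%, against 67.8%) and Snail near 16 (88.9%, against 76.5%). The forkhead shares were above the background in both length classes, and that difference was not tested.

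The members with both factors were Foxa1, Foxb2, Foxc2, Foxf1, Foxj1, Foxj2, Foxj3, Foxk1, Foxk2, Foxl1, Foxm1, Foxn1, Foxn2, Foxn3, Foxo1, Foxo3, Foxo4, Foxp1, Foxp4 and Foxq1. Slug alone was found at Foxb1, Foxd4, Foxe1, Foxi3, Foxo6 and Foxp2. The members with Snail alone included Foxa2, Foxa3, Foxc1, Foxd2, Foxf2, Foxh1, Foxl2, Foxn4, Foxp3, Foxr2 and Foxs1. No peak of either list was found at Foxd1, Foxd3, Foxe3, Foxi1, Foxi2 and Foxr1, which all span less than 10 kb. Their nearest peaks lay 12.5 kb (Foxi1, both factors), 13.5 kb (Foxr1, Snail), 14.5 kb (Foxd1, Slug), 15.2 kb (Foxe3, Snail), 16.6 kb (Foxi2, Slug) and 16957 bp (Foxd3, Slug) from the gene.

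**Figure D1:**
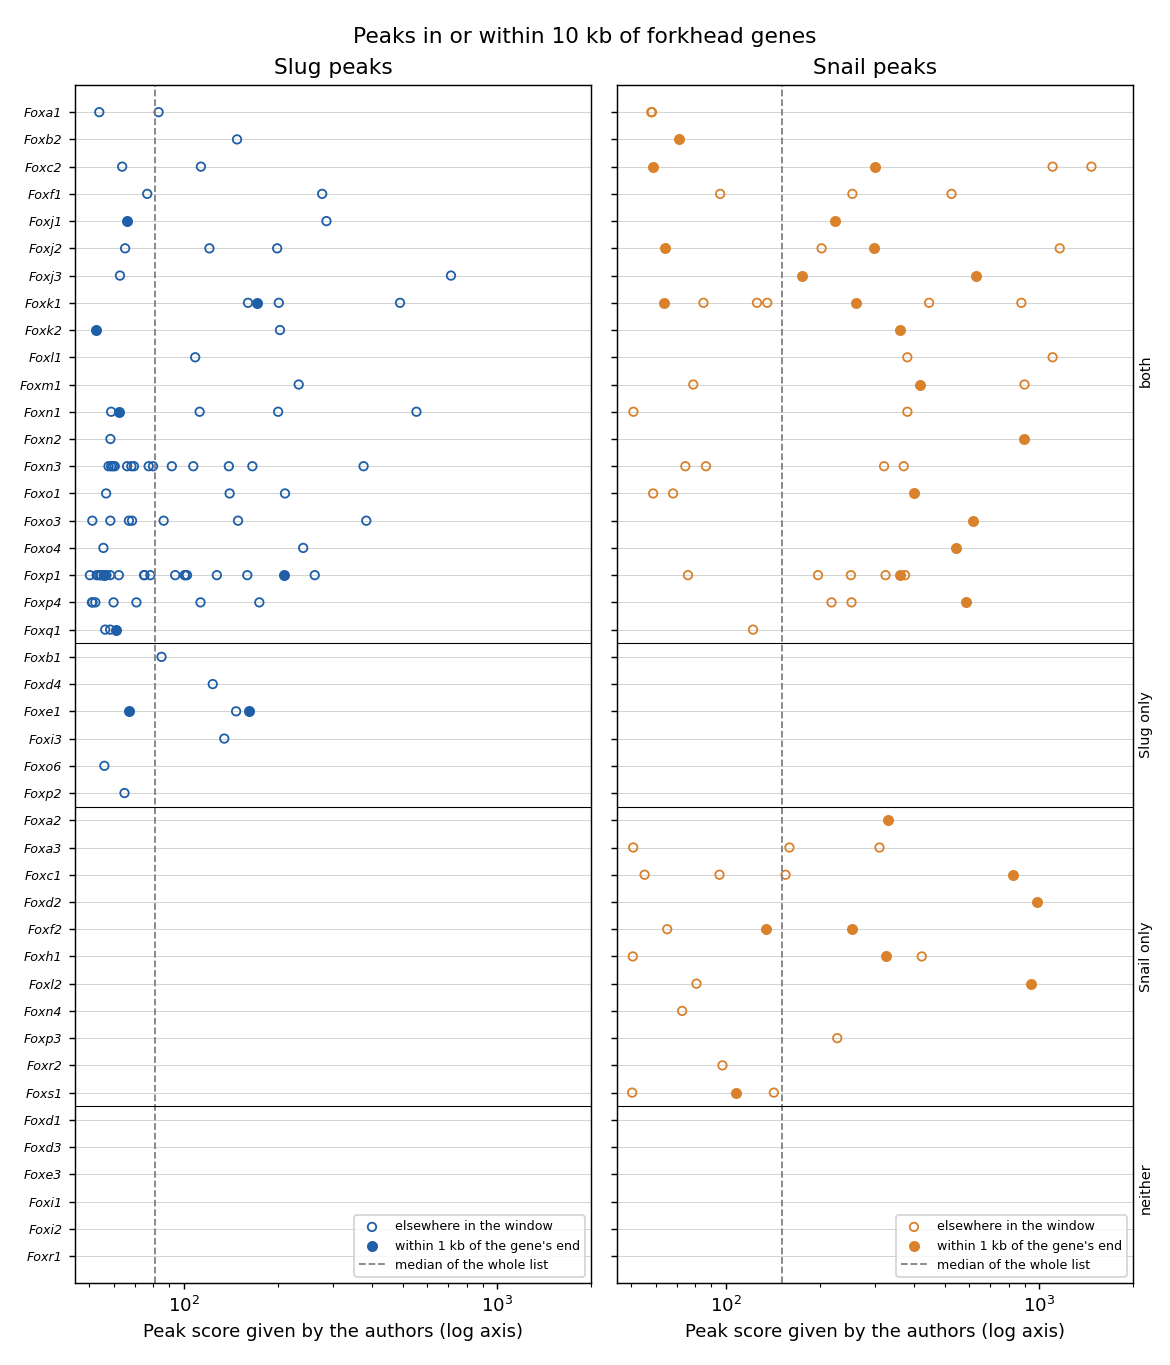
Scores of all Slug peaks (left, blue) and Snail peaks (right, orange) in or within 10 kb of the forkhead genes named in the text, on a log axis, 1 gene a row, grouped by which factors had a peak. Filled points lie within 1 kb of an end of the gene, and the dashed lines are the medians of the whole lists (81.1 and 151). Most filled points are in the Snail panel.

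The peaks of the 2 factors sat at different places. Of 93 Slug peaks near members, 9 had their midpoint within 1 kb of an end of the member, 61 lay elsewhere inside the gene and 23 outside it. Of 76 Snail peaks, 27 (35.5%) lay within 1 kb of the member's end, 21 inside the gene and 28 outside. Counting the ends of any protein-coding gene, 14.0% of the forkhead Slug peaks and 51.3% of the forkhead Snail peaks lay within 1 kb of one. These shares were close to those of all peaks in protein-coding windows, 10.6% for Slug and 47.1% for Snail.

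Counted by gene, Slug was found within 1 kb of an end in 7 members (15.9%, against 12.1% of all genes) and Snail in 22 (50%, against 48.7%). Of the members under 10 kb, 12 (46.2%) had a Snail peak there, against 35.8% of all short genes, and of those of 10 kb or more, 10 (55.6%) did, against 56.1% of all long genes. The 7 with Slug were Foxe1, Foxj1, Foxk1, Foxk2, Foxn1, Foxp1 and Foxq1. For the members with a known start site, the median distance of a peak from it was 38.9 kb for Slug (69 peaks at 13 genes) and 3.69 kb for Snail (46 peaks at 20 genes). Over all protein-coding genes it was 19.2 kb for Slug and 5.76 kb for Snail. The very long genes Foxp1 and Foxn3 held 21 and 14 of the 69 Slug peaks, and without them the forkhead medians were 19.1 and 1.3995 kb. The only Foxn3 start site used, at 99450074 on the minus strand, lies inside the gene, whose span ends at 99563667. A Snail peak centred 1.22 kb from that end of Foxn3 thus counted as 112 kb away.

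**Figure D2:**
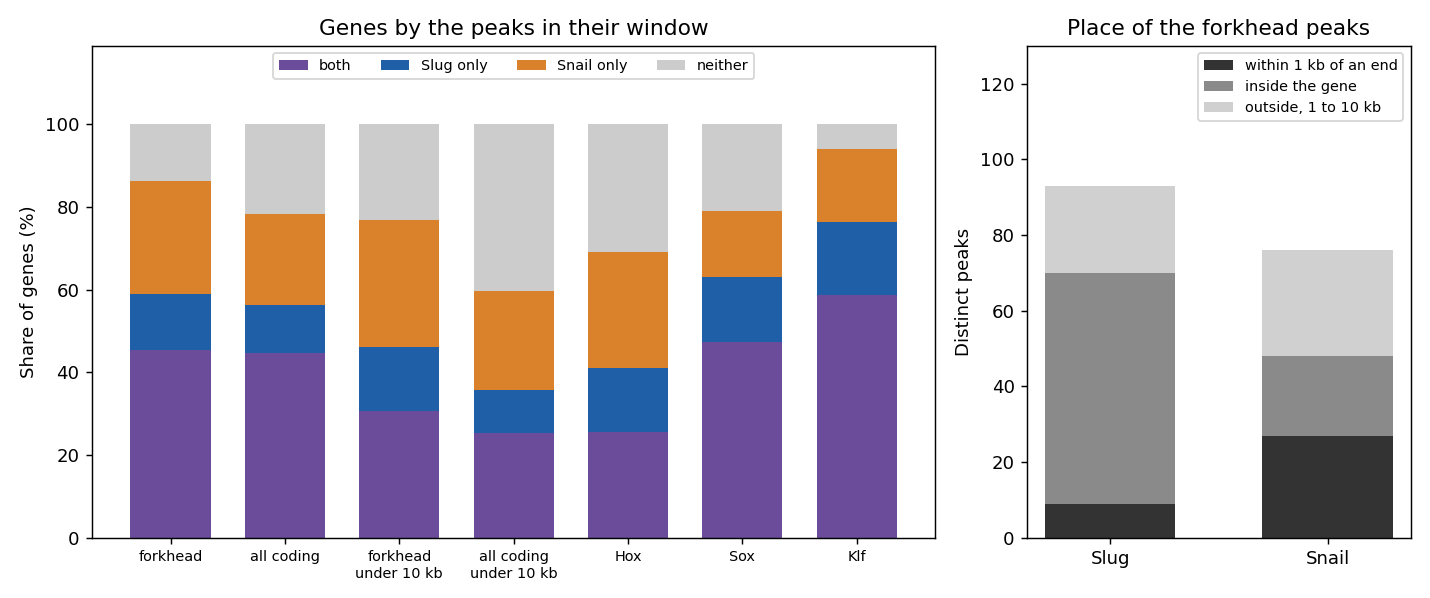
Left, share of genes (%) with a peak of both factors, Slug only, Snail only or neither, for the forkhead genes, all protein-coding genes, both sets limited to genes under 10 kb, and the Hox, Sox and Klf genes. Right, the number of distinct peaks near forkhead genes within 1 kb of an end, inside the gene or outside it; 9 of 93 Slug and 27 of 76 Snail peaks lay at an end.

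Start sites could be read for 28 of the 44 members, which have 33 promoter windows in RefSeq (GRCm38.p6) from 250 bases before the start site to 50 after. A Snail peak overlapped 15 of the 33 windows (45.5%, against 49.2% of all protein-coding promoter windows), belonging to 13 genes. A Slug peak overlapped none, against 3.97% of all windows. The E-box CAGGTG, read on both strands, was found in 9 of the 33 windows (27.3%, against 19.7% of all windows). The wider E-box CANNTG, which contains it, was found in 22 (66.7%, against 69% of all windows). Among the 15 windows under a Snail peak, 3 held CAGGTG (20%), and among the other 18 windows 6 did (33.3%). Over all genes the shares were 16.7% and 22.6%, so the share with the motif was the lower one under Snail peaks in both sets. Promoters under Snail peaks were also richer in CpG, with a median of 31 CpG dinucleotides per forkhead window under a peak and 10 in the others, and 22 and 4 over all genes. The part of CpG content in the Snail peaks was not tested.

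The 3 windows with CAGGTG under a Snail peak belong to Foxa1, Foxp1 and Foxp4, and in each the motif itself lies inside the peak. They are shown first, followed by 4 promoters of singly described genes that lie under a Snail peak without CAGGTG. Each line gives the 250 bases before the start site, 5′ to 3′ on the strand of the gene, and capitals mark every CANNTG. The Foxa1 stretch is chr12:57546112-57546361 on the minus strand, Foxp1 chr6:99028299-99028548 on the minus strand, Foxp4 chr17:47924633-47924882 on the minus strand, Foxc1 chr13:31806396-31806645 on the plus strand, Foxf2 chr13:31625566-31625815 on the plus strand, Foxo1 chr3:52268087-52268336 on the plus strand and Foxo3 chr10:42276696-42276945 on the minus strand, all on mm10.
Foxa1: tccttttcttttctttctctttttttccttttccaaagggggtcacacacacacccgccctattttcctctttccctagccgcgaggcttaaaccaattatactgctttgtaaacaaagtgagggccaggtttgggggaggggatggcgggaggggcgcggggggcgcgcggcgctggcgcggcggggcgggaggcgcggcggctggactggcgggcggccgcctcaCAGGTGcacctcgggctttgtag
Foxp1: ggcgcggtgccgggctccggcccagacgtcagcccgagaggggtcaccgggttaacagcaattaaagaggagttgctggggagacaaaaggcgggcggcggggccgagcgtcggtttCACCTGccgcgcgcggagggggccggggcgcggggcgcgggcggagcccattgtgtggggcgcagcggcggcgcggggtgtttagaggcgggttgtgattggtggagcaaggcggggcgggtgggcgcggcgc
Foxp4: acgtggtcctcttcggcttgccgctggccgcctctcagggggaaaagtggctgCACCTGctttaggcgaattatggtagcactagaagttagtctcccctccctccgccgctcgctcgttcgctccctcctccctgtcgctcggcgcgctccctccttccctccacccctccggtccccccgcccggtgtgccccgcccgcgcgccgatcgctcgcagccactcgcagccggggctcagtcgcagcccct
Foxc1: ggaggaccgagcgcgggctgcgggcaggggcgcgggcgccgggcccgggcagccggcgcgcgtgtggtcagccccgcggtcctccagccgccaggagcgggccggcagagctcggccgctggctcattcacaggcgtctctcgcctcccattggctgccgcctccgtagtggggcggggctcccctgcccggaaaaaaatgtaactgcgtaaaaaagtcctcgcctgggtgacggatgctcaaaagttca
Foxf2: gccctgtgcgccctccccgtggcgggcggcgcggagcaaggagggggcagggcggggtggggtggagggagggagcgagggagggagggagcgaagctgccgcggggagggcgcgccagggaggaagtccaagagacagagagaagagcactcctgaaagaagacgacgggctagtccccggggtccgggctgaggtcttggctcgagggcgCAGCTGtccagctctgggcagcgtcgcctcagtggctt
Foxo1: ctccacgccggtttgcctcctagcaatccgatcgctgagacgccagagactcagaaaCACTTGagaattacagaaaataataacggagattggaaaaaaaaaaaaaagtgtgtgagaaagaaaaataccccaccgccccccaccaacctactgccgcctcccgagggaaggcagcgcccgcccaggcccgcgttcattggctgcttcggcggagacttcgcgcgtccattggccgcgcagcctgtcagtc
Foxo3: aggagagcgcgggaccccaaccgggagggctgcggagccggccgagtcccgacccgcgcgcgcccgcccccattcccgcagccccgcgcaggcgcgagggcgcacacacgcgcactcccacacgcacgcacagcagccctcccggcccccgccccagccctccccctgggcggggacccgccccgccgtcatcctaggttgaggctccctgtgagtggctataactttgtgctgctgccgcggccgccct

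In Foxa1 the CAGGTG begins 23 bases before the start site. In Foxp1 and Foxp4 the match is to the other strand, so it reads CACCTG, and begins 133 and 197 bases before it. The only E-box in the Foxf2 stretch reads CAGCTG. That in the Foxo1 stretch reads CACTTG. The Foxc1 and Foxo3 stretches have none.

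Foxa1 encodes a pioneer factor of luminal mammary cells (chromosome 12, 57540628 to 57548029, minus strand). It had 2 Slug and 2 Snail peaks, all inside the gene span and none with a high score. The Slug peaks at 57544215 to 57544434 and 57546456 to 57546928 scored 53.8 and 83.2, the second just above the Slug median. The Snail peaks at 57545536 to 57545883 and 57545944 to 57546195 scored 58.2 and 57.9, higher than only 10.1% and 9.84% of the Snail list. The Snail peak with the score of 57.9 covered the start site at 57546111 and the CAGGTG just before it. Both Snail peaks and the stronger Slug peak also lay within 1 kb of an end of the gene Ttc6. That end falls inside the Foxa1 span, so these peaks cannot be assigned to Foxa1 over Ttc6. With scores of at least 100, Foxa1 had no peak of either factor, and without peaks at the ends of other genes it had Slug alone.

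The other FoxA genes had Snail peaks and no Slug peak. Foxa2, an endoderm regulator, had 1 Snail peak, which scored 329 (chromosome 2, 148045598 to 148046642). It covered 1 of the 3 annotated start sites, at 148045948. Foxa3, known from liver, had 3 Snail peaks with scores of 309.7, 159.8 and 50.7. The 2 higher of these lay at the ends of neighbouring genes, Sympk and Irf2bp1. None of the 3 was centred within 1 kb of an end of Foxa3 itself.

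FoxC2, FoxF1 and FoxL1 are encoded close together on chromosome 8, where the protein-coding gene Mthfsd lies between Foxf1 and Foxc2. FoxC1, FoxF2 and FoxQ1 are encoded on chromosome 13. The chromosome 8 group is compact, with gaps of 28016 and 8789 bp between the forkhead genes, whereas on chromosome 13 the gaps are 64.8 and 175 kb. Including 10 kb on each side, the chromosome 8 region of 66.3 kb held 6 Slug and 8 Snail peaks. The chromosome 13 region of 272 kb held 5 Slug and 8 Snail peaks. Per 100 kb this is 9.06 Slug and 12.1 Snail peaks on chromosome 8, and 1.84 and 2.94 on chromosome 13. The windows of all protein-coding genes, each a gene span with 10 kb on each side, held 1.96 Slug and 2.15 Snail peaks per 100 kb. There a peak in 2 windows counts in each, and the median gene spans 17.2 kb. In the regions each peak counts once, so the values are not like for like, and no value for short genes was computed. Overlapping peaks of the 2 lists were found on chromosome 8 (3 Slug peaks within 2 Snail peaks) and none on chromosome 13.

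Foxc2, which encodes a mesenchymal factor of the EMT program (chromosome 8, 121116171 to 121118895), had 4 Snail and 2 Slug peaks in its window. Its highest-scoring Snail peak spanned 121107632 to 121109277 and scored 1471. It ranked 965 of 28375 and was the highest of any forkhead gene. That peak was centred 7.72 kb from Foxc2, within 1 kb of an end of Mthfsd. Both Slug peaks of Foxc2, with scores of 114 and 63.6, lay inside the same Snail peak. At the low-coordinate end of Foxc2 itself, Snail occupied 121115957 to 121116409 (score 299) and a site 740 bp inside (58.6). A Snail peak scoring 1106, from 121124645 to 121126779, lay between Foxc2 and Foxl1 and is in the window of both. When peaks at the ends of other protein-coding genes were left out, Foxc2 changed from both factors to Snail only.

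The neighbours of Foxc2 carried peaks of both factors too. Foxf1, which encodes a regulator of lung and gut mesenchyme, had a shared site outside its low-coordinate end, where the peaks were centred 1.22 kb (Snail) and 1.43 kb (Slug) from the gene, at an end of the long noncoding RNA gene Fendrr. The Snail peak there, 121082191 to 121084150, scored 526 and enclosed a Slug peak with a score of 277. Foxf1 had 2 further Snail peaks (scores 254 and 96.0), both inside the span of Mthfsd, and 1 further Slug peak (76.5), inside that of Fendrr. Foxl1, known from gut mesenchyme, had besides the shared neighbour peak 1 Snail peak (score 380.04) and 1 Slug peak (109), neither within 1 kb of its ends.

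Foxc1, a factor linked to basal-like breast cancer (chromosome 13, 31806646 to 31810635, plus strand), had 4 Snail peaks and no Slug peak in its window. The strongest scored 825 and, from 31805870 to 31807093, covered the start site and the whole promoter stretch shown above. The others scored 95.6, 155 and 55.1 and lay at least 5.28 kb outside the gene. The weakest of them was at an end of the neighbouring gene Gmds.

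Foxf2, which encodes a mesenchymal factor (chromosome 13, 31625816 to 31631406, plus strand), likewise had Snail peaks only. The peak at 31625368 to 31626019 covered the start site with a score of 253. The next, at 31626064 to 31627276, scored 134, and the last, beyond the high-coordinate end, scored 65.1. No Slug peak lay between Foxf2 and Foxc1.

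Foxq1, another EMT-linked gene (chromosome 13, 31558170 to 31560976), showed the reverse balance. It was near 3 Slug peaks (58.3, 56.2 and 60.7), all below the Slug median. The one scoring 60.7 lay inside the gene at 31560021 to 31560172. Its single Snail peak, with a score of 122, was centred 6.62 kb beyond the high-coordinate end. It was the only one of the 4 EMT-linked members Foxc1, Foxc2, Foxf2 and Foxq1 without a Snail peak at its own end. With scores of at least 100, a cut that kept a smaller share of the Slug list than of the Snail list, Foxq1 had no Slug peak left.

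**Figure D3:**
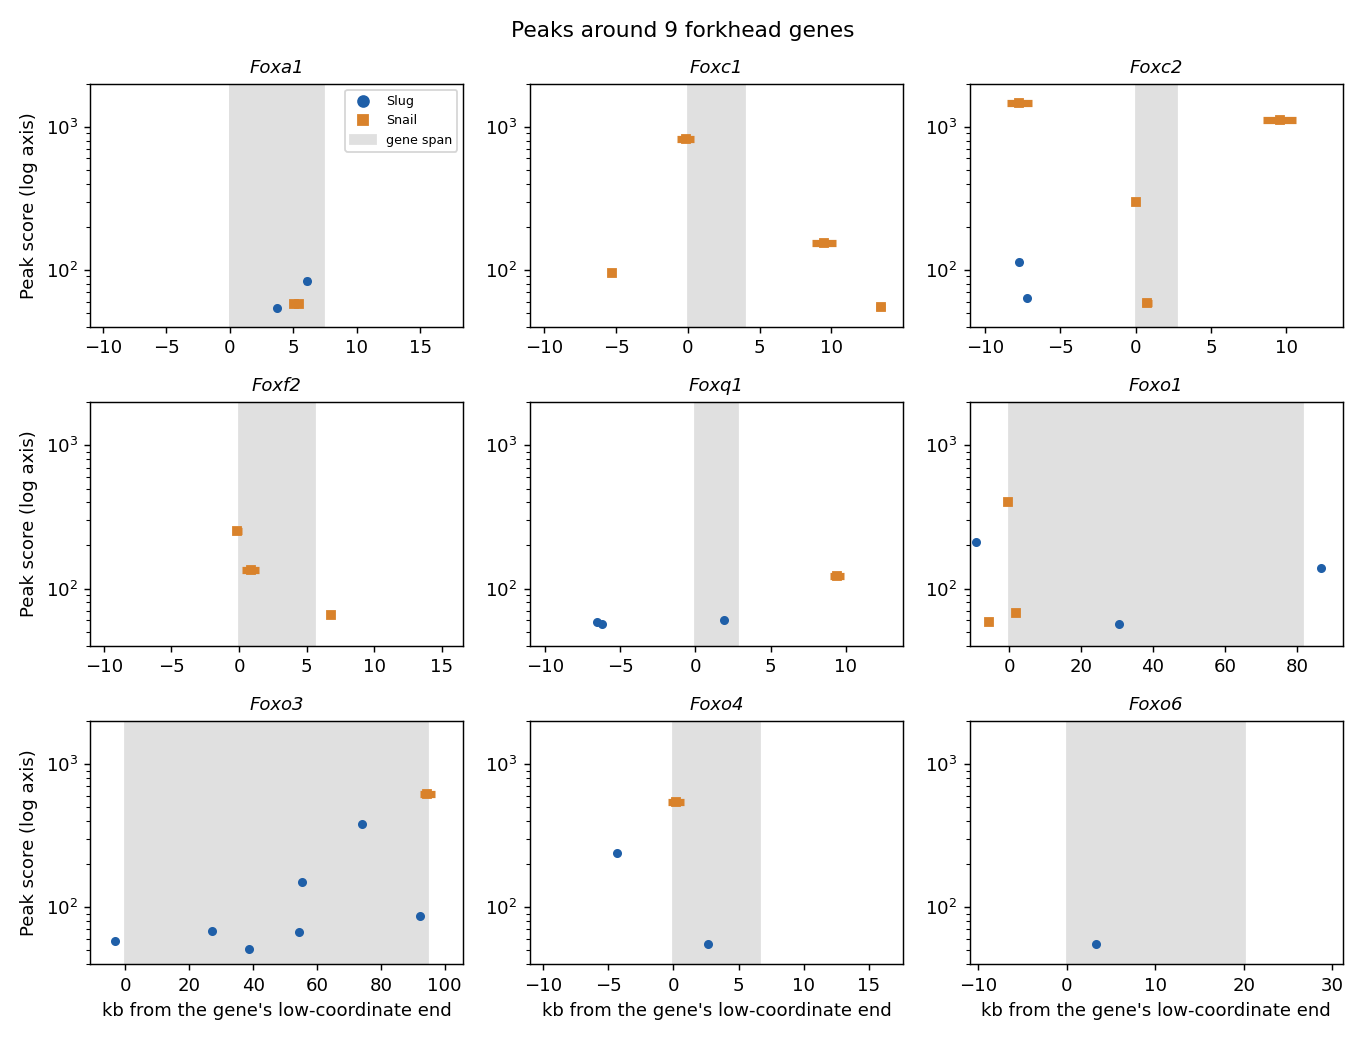
Slug (blue circles) and Snail (orange squares) peaks around 9 forkhead genes, by distance in kb from the low-coordinate end of the gene (grey, gene span) and by score on a log axis, with bars as wide as the peak. Snail peaks lie at a gene end in Foxc1, Foxc2, Foxf2, Foxo1, Foxo3 and Foxo4; Foxo6 has 1 Slug peak and no Snail peak.

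**Figure D4:**
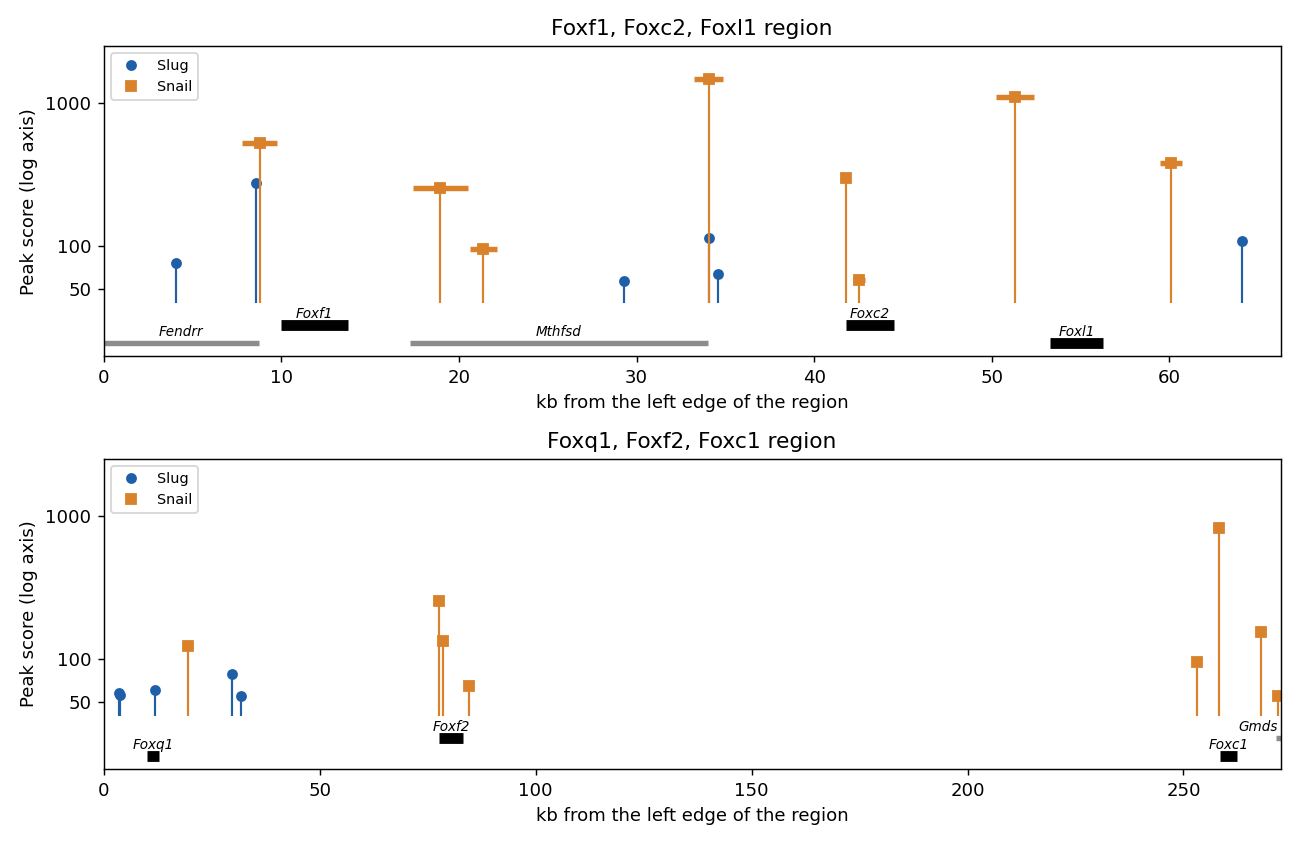
Slug (blue) and Snail (orange) peaks in the Foxf1, Foxc2, Foxl1 region (66.3 kb) and the Foxq1, Foxf2, Foxc1 region (272 kb), with the score on a log axis against distance in kb, forkhead genes in black and selected other genes in grey. The highest Snail point of the first region stands at the end of Mthfsd, and in the second region no Slug peak lies to the right of 31.9 kb, while 7 of the 8 Snail peaks do.

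FoxO proteins are effectors of insulin and growth factor signalling that switch on genes of cell cycle arrest, stress defence and apoptosis. All 4 FoxO genes had Slug peaks, 13 in all, and 3 of the 4 had a Snail peak at an end. Over all protein-coding genes, 56.2% had Slug in the window and 48.7% Snail within 1 kb of an end. Among those spanning 10 kb or more, as Foxo1, Foxo3 and Foxo6 do, the shares were 67.8% and 56.1%. Foxo1 (chromosome 3, 52268337 to 52350109, plus strand) had a Snail peak over its start site at 52267521 to 52268686 with a score of 399, and weaker ones on each side with scores of 58.7 and 67.9. Its Slug peaks kept away from the start site. They scored 211 at 9.27 kb before the gene, 56.6 at 30.6 kb inside it and 140.2 at 4.95 kb beyond its far end.

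Foxo3 (chromosome 10, 42181845 to 42276695, minus strand) had 7 Slug peaks and 1 Snail peak. Snail occupied 42273977 to 42278776, over the start site, with a score of 617.7, and at 4800 bp this was the widest peak near any forkhead gene. One Slug peak, with a score of 86.3, lay inside it 2.55 kb into the gene. The strongest Slug peak, scoring 383 (42255772 to 42256067), lay 20.8 kb into the gene and outside the Snail peak. The other 5 Slug peaks scored between 51.1 and 149.

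Foxo4 (X chromosome, 101254261 to 101260873) resembled Foxo1 in its arrangement. Its Snail peak at 101253813 to 101255098 lay over the low-coordinate end with a score of 545, and its stronger Slug peak, with a score of 241, was 4.36 kb outside the same end. A second Slug peak inside the gene scored 55.4. Foxo6 (chromosome 4, 120267078 to 120287261) had only 1 Slug peak, 3.27 kb inside the gene, with a score of 55.8, above 17.7% of the Slug list. No Snail peak lay within 10 kb of the gene, nor within 25 kb.

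Slug peaks were concentrated in a few long members. Foxp1, Foxn3, Foxo3 and Foxp4 together held 49 of the 93 Slug peaks (52.7%). The top 4 members for Snail held 21 of 77 peaks (27.3%), with a peak in 2 windows counted in each. The share of the window sequence in these genes was not computed, so the counts are not read apart from gene length. Foxp1, which encodes a factor of B cell, lung and neuronal development, spans 597 kb and had 21 Slug and 6 Snail peaks. Snail covered 2 of its 3 annotated start sites, at 99028298 (score 324) and 99520993 (374). Another Snail peak (361) lay over the high-coordinate end of the gene and enclosed 2 Slug peaks (209 and 55.8). Foxn3, a gene of 374 kb linked to the DNA damage checkpoint, had 14 Slug and 4 Snail peaks, with highest scores of 375 and 370.1. The Snail peak of 370.1 lay at an end of Gm51999, inside Foxn3. Foxp2, of 541 kb and best known from speech and vocal circuits, had 1 Slug peak with a score of 64.7 and no Snail peak. Peaks near the 44 members came to 2.98 Slug and 2.47 Snail per 100 kb of window, against 1.96 and 2.15 over all protein-coding genes.

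The highest Slug scores of the family lay inside genes. Foxj3, a factor of muscle and sperm development, carried the highest, 713 at chromosome 4, 119594314 to 119594581, which is 54.8 kb into the gene and ranked 477 of 41612. Its Snail peaks of 628 and 175 lay within 1 kb of the start site, the first also at an end of Frg2f1. Foxn1, the gene mutated in nude mice, had one of 553 at chromosome 11, 78384256 to 78384553, inside the gene 2.38 kb from its high-coordinate end. Its other 4 Slug peaks scored 58.7 to 200.2, and its 2 Snail peaks (380.1 and 50.8) lay in the far part of the gene. Foxk1, which encodes a repressor of autophagy genes, carried 4 Slug peaks (160.4 to 491) and 7 Snail peaks. The strongest Snail one (879) lay at an end of the neighbouring gene Ap5z1. Foxj1, the master regulator of motile cilia, had a Slug peak (286) outside its low-coordinate end. At the other end, a Slug and a Snail peak overlapped, within 1 kb of an end of Rnf157.

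The highest Snail scores included sites away from the member and at ends of other genes. Foxj2, which encodes a widely expressed activator, had its strongest (1165) centred 8.89 kb outside the gene, and others of 298 and 64.3 at its own start site. Foxm1, which encodes a driver of mitotic gene expression (chromosome 6, 128362994 to 128375886), was near Snail peaks of 899, 418 and 78.8. The strongest lay at the ends of Rhno1 and Tulp3, and that of 418 at the adjoining ends of Foxm1 and Rhno1. Its Slug peak, inside the gene, scored 233. In contrast, the Snail peaks of Foxd2 (score 984) and Foxl2 (score 944) covered the start sites of these genes themselves, which are close to the long noncoding RNA genes Foxd2os and Foxl2os. Foxn2 carried Snail (894) over its low-coordinate end and 1 Slug peak (58.4) inside the gene. In all, 16 of the 76 Snail peaks and 5 of the 93 Slug peaks near members lay within 1 kb of an end of another protein-coding gene. The same share over all genes was not computed, so these counts are not read as a forkhead trait. Of all peaks in protein-coding windows, 47.1% for Snail and 10.6% for Slug lay within 1 kb of some protein-coding gene end.

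Near forkhead genes few peaks of the 2 lists overlapped, at a share close to the whole list for Slug and below it for Snail. The lists come from different cell lines, so an overlap does not show both factors at a site in the same cells. Of 93 Slug peaks, 11 (11.8%) overlapped a Snail peak, against 12.1% of the Slug list, and of 76 Snail peaks, 9 (11.8%) overlapped a Slug peak, against 16.6% of the Snail list. The shared sites were at 8 genes: Foxc2, Foxf1, Foxj1, Foxk1, Foxk2, Foxn3, Foxo3 and Foxp1. In 9 of the 11 cases the narrow Slug peak lay wholly inside the Snail peak. With an overlap of at least 50% of both peaks, none was shared, against 3.73% of the Slug and 5.47% of the Snail list. Each of the 11 Slug peaks was under 50% as wide as its Snail peak. None could therefore meet that rule, and nothing is read from it. Of the 20 members with peaks of both factors, 8 thus had overlapping peaks, and in the others the peaks of the 2 lists did not overlap. The same share over all protein-coding genes with both factors was not computed, so the count is not read as a forkhead trait.

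Members with Slug alone scored at most 161. That was Foxe1, a thyroid and palate gene, with peaks of 161 and 66.9 near its low-coordinate end and 147 farther out. Foxi3, an ectodermal placode gene, had 1 with a score of 135 centred 1.95 kb before its start site. Foxd4 (124), Foxb1 (85.0), Foxp2 (64.7) and Foxo6 (55.8) had 1 each.

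The members with Snail alone had highest Snail scores from 72.6 to 984. Besides Foxc1, Foxf2, Foxd2, Foxl2, Foxa2 and Foxa3, they included Foxh1, a partner of Smad proteins, with a highest score of 423, Foxp3, the regulator of regulatory T cells, with 227, Foxs1 with 142, Foxr2 with 97.7 and Foxn4 with 72.6. The Foxh1 peak of 423 and the Foxp3 peak both lay at ends of neighbouring genes. At its own end, which adjoins Ppp1r16a, Foxh1 had one of 326. Without peaks at the ends of other genes, Foxp3 had neither factor.

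Genes that act with forkhead proteins were counted for comparison, from a list of 53 regulators, targets and partners. Slug was near 42 of them (79.2%) and Snail near 52 (98.1%), against 56.2% and 66.7% of all protein-coding genes. The list was drawn up with earlier results of these data known. Its genes are long, with a median of 38.9 kb and 44 of 53 at 10 kb or more, a length at which 67.8% of all genes had Slug and 76.5% Snail. Of the 15 genes upstream of FoxO, Slug was near 13 and Snail near all 15. Of 14 FoxO targets, 10 had a Slug and 14 a Snail peak, with Cdkn1b, which encodes the cell cycle inhibitor p27, at 157 and 1541. Slug was near all 6 FoxA partners and Snail near 5, the exception being Grhl2. Among them the estrogen receptor gene Esr1 had 7 Slug peaks (up to 298) and 4 Snail peaks (up to 314). All 9 FoxM1 targets had a Snail peak and 5 a Slug peak. Of 9 cofactors, 8 had a Slug and 9 a Snail peak.

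Other transcription factor families gave shares on both sides of the forkhead genes. Of 39 Hox genes, 16 (41.0%) had a Slug and 21 (53.8%) a Snail peak, and of 19 Sox genes, 12 (63.2%) had each. Within 1 kb of an end, 6 Hox genes (15.4%) and 8 Sox genes (42.1%) had a Snail peak, as did 22 forkhead genes (50%) and 10 of 17 Klf genes (58.8%). In the whole window, 13 of the Klf genes (76.5%), which are longer, had Slug and 13 had Snail. No test of these differences was possible with 1 library of each factor.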

How the data were processed

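Snail and Slug ChIP-seq peak lists of 2 mouse breast cancer lines were analysed, 1 library each. The 2 input libraries were not used here. Per the labels' protocols, cross-linking used 1% formaldehyde (10 min) and sonication left fragments of 200 to 500 bp. The submitters' processing notes name Bowtie, MACS 1.4.2 and mm10. For the settings, the control and the Bowtie version, the sources used here give nothing. The deposited files give each peak a position and a score by the authors, on a scale the files do not state. Wider and higher-scoring peaks can follow from depth, which is unknown.

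Starts were converted to 1-based positions. Genes came from RefSeq GRCm38.p6 (49939 genes on chromosomes 1 to 19, X and Y), and start sites and promoter sequence from its promoter table, which held 28 of the 44 members. Gene structure below the gene level was not used here, and peak sequences were not read. A gene had a peak where a midpoint lay in its span or within 10 kb of either end. Overlap meant at least 1 bp. Alternatives changed the window, the score minimum, the number of peaks, the peak position and the overlap. Singly described were 9 genes, then the members with the 5 highest further Slug and Snail scores and the 3 with most peaks. The promoters to print were to be those under the highest-scoring peaks. Printed instead were those under a Snail peak that belonged to the first 9 genes or held CAGGTG, chosen after their motifs were seen. Values of 1 member and 1 listed gene enter the counts and are not reported here. The members, lists and rules were chosen with earlier results of these data known. Python 3.11.15, numpy 2.4.6, pandas 2.3.3 and matplotlib 3.10.9 were used, and peak assignment and overlap were tested on simulated data.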

Additional observations from a re-analysis of the deposited data

How the results depend on the processing

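No paired analysis was possible because each factor has 1 library, and no library could be left out. Of the recomputed values, 41 stayed within 1.5 times the reported one and 14 did not. Limiting peaks to 1 kb of a gene end gave 7 members with Slug (15.9%, against 12.1% of all genes), 4 with both (9.09%, against 8.88%), 3 with Slug only (6.82%, against 3.26%) and 19 with neither (43.2%, against 48%). Members with neither numbered 12 at scores of at least 100 (27.3%, against 30.5% of all genes), 11 with 5 kb flanks (25%, against 25.8%) and 0 with 25 kb flanks (against 15%). The gap from all genes in that class, 13.6% against 21.7% in the reported window, thus depended on the window and the score minimum. Forkhead peaks that overlapped one of the other list fell to 0 in both lists at a reciprocal overlap of 50% (3.73% of the whole Slug and 5.47% of the whole Snail list). The overlapping Slug peaks were too narrow beside their Snail peaks to meet that rule. They fell to 5 in each list at scores of at least 100. There 12.8% of the Slug and 9.62% of the Snail peaks overlapped (10.1% and 9.01% of the whole lists). The wider motif CANNTG, in place of CAGGTG, was in 22 promoter windows. Leaving out peaks at ends of other protein-coding genes, an alternative added after seeing the data, gave 25 members with Slug, 29 with Snail, 17 with both and 7 with neither. The shares of all genes were not computed for this alternative, so these counts have no background beside them. Leaving out Foxp1 and Foxn3, also added after seeing the data, moved the median distance from the start site to 19.1 kb for Slug and 1.3995 kb for Snail. Depth is unknown, so a missing peak does not show that binding is absent.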

Other observations

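With the window widened to 25 kb on each side of the gene, every one of the 44 forkhead genes had a peak of at least 1 factor, where 15% of all protein-coding genes still had none. Slug peaks then lay near 36 members (81.8%, against 71.5% of all genes) and Snail peaks near 37 (84.1%, against 72.8%). With the window narrowed to 5 kb the shares were near those of all genes, at 22 members for Slug (50%, against 48.4%), 28 for Snail (63.6%, against 63.4%) and 11 for neither (25%, against 25.8%). At Foxd1, Foxd3, Foxe3, Foxi1, Foxi2 and Foxr1, which had no peak within 10 kb, peaks then appeared. Foxd1, Foxd3 and Foxi2 gained Slug only, Foxe3 Snail only, and Foxi1 and Foxr1 both.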
